A study of Mus musculus with 20 samples.

Results

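ATP-binding cassette (ABC) transporter genes were described in tumors, ganglia and spheres from wild-type mice and from mice with a MYCN transgene. The members were all genes whose annotated symbol consists of Abc, a family letter from a to g and a number, with or without a final letter. This rule found 45 of the 18193 genes named on the array, measured by 92 probe sets, and the probe set that was brightest on average across the 20 arrays stands for each gene. Of the 45, 38 were among the 15132 genes bright enough to be tested.

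ABC proteins use ATP to move lipids, drugs, peptides and metabolites across membranes. Members of the B, C and G families pump drugs and conjugates out of cells and are known for multidrug resistance in cancer, including neuroblastoma, where MYCN amplification has been linked to ABCC1. The A family and part of the G family move cholesterol and phospholipids, the D family carries fatty acids into peroxisomes, and the E and F families lack membrane-spanning parts and act on ribosomes.

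RNA was measured on 1 Affymetrix mouse expression array per sample. MYCN is a transcription factor amplified in aggressive neuroblastoma, a childhood tumor of the sympathetic nervous system, and Mdk encodes the growth factor midkine. Ganglia (4 arrays) and neurospheres (2 arrays) came from wild-type mice of the 129+Ter/SvJcl background. On a mixed 129+Ter/SvJcl background, mice homozygous for the transgene gave 2 ganglion and 4 tumor samples, homozygous mice with Mdk knockout gave 2 tumors, and hemizygous mice gave 4 tumors and 2 tumorsphere cultures. Neurospheres and tumorspheres are cells cultured as floating balls. The labels used here give neither ages nor the promoter that drives the transgene, and the groups with and without the transgene also differ in background. Whether the arrays of a group stem from different animals or cultures is not stated in the labels. The p-values therefore compare differences with the scatter of these samples, part of which may be technical.

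The Mdk intensity was 42.6 and 35.5 in the tumors with Mdk knockout and 297, 268, 269 and 271 in homozygous tumors, a log2 difference of -2.41 ± 0.29 (SE, adjusted p = 0.0017), and Mdk was the 1 gene called in that comparison. The probes on the array measure the mouse Mycn gene, and the level of the transgene was not analysed here. The beta-actin control probe sets give a 3' over 5' signal ratio that rises as RNA shortens. This ratio was 6.88 ± 1.96 (SD, n = 4) on average for wild-type ganglia, 5.78 ± 2.83 (SD, n = 2) for neurospheres and between 2.2 and 4.35 in the other 5 groups. The same ratio for the GAPDH control did not set wild-type ganglia apart: it was 3.42 ± 0.68 (SD, n = 4) there, 7.43 ± 5.76 (SD, n = 2) in neurospheres and between 2.9 and 4.01 in the other 5. Wild-type ganglia 1 and 2 stood apart from 3 and 4 for several members. On 6 arrays the skeletal muscle gene Acta1 exceeded an intensity of 100: hemizygous tumor 3, Mdk-knockout tumor 2, homozygous tumor 2, homozygous ganglion 2 and ganglia 1 and 2 of the wild type. In tissue samples, fewer cells of a type and less RNA per cell cannot be told apart. The part of RNA length in the results was not tested.

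Promoter sequences of 6 members are shown because the results turn on 2 runs of neighbouring genes and on a translation factor gene that rose. Abca8b, Abca8a and Abca9 follow each other on the chromosome and fell together. Abcb1a and its neighbour Abcb1b did not move together against wild-type ganglia, and Abcf1 is a translation factor gene that rose. The sequences are from RefSeq on build GRCm38.p6, cover 250 bases before and 50 bases after the start site, and run 5' to 3' on the strand of the gene. Capitals mark CACGTG, the E-box known as a binding site of MYC family proteins, CCAAT or its reverse complement ATTGG, and GGGCGG or its reverse complement CCGCCC, searched on both strands.
Abca8b, chr11:109995796-109996095, minus strand: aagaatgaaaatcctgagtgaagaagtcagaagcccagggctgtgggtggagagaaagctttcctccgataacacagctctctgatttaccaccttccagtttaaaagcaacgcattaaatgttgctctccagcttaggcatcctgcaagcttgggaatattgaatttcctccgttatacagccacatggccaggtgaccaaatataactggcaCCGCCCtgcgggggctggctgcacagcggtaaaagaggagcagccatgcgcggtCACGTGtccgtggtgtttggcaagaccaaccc
Abca8a, chr11:110095888-110096187, minus strand: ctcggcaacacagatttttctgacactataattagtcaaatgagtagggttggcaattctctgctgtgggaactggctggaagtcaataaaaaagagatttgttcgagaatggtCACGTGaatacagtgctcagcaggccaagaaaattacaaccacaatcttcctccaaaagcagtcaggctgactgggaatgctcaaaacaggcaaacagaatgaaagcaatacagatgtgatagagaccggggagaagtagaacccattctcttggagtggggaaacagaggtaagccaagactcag
Abca9, chr11:110168104-110168403, minus strand: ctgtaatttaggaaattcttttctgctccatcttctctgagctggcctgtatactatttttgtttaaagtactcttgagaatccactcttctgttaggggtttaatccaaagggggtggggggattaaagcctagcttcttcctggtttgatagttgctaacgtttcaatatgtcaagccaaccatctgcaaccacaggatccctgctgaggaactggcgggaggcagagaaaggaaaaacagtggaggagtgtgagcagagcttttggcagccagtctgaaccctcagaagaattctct
Abcb1a, chr5:8566841-8567140, plus strand: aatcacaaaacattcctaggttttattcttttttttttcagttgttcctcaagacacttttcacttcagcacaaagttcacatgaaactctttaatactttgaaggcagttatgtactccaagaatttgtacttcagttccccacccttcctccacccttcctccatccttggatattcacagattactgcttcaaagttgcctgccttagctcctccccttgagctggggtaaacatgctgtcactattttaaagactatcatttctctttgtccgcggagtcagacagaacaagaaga
Abcb1b, chr5:8797897-8798196, plus strand: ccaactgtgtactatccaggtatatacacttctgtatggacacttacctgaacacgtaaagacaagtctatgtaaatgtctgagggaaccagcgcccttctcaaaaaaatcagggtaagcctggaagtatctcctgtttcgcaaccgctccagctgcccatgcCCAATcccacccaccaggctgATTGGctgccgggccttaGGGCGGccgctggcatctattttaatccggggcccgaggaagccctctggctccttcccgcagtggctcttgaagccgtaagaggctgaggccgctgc
Abcf1, chr17:35969701-35970000, minus strand: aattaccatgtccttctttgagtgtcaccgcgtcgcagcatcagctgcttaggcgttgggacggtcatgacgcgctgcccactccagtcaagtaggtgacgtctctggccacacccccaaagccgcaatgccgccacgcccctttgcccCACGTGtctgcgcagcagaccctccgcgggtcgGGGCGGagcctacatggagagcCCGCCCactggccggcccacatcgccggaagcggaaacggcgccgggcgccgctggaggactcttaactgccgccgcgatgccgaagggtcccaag
CACGTG stood in 3 of the 6 windows, with its first base at -136 in Abca8a, at 19 in Abca8b and at -101 in Abcf1, counted from the start site. The Abcb1a and Abca9 windows held no match to the 3 motifs, while Abcb1b had CCAAT on both strands and 1 GGGCGG. Matches in these windows did not overlap each other. The neighbours differ in sequence: Abcb1a and Abcb1b shared 54.3% of their 300 bases in a pairwise alignment, and Abca8a shared 52% with Abca8b and 54% with Abca9.

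Promoter entries were found for 35 of the 45 members, with 42 promoters in all because some genes have several start sites. CACGTG was in 5 of the 42 (11.9%), those of Abca1, Abca8a, Abca8b, Abcc4 and Abcf1, and in 7.15% of all 32851 promoters of this length. Of these 5 genes, 1 rose and 3 fell in both kinds of tumor. Counted by promoter, CACGTG was in 1 of 5 (20%) of the members that rose in both and in 3 of 12 (25%) of those that fell in both. CCAAT was in 35.7% of the members' promoters and 37.4% of all promoters, and GGGCGG in 50% and 35.7%. These are letter matches only.

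Counts of changed members were near those of all genes in most comparisons, and the description below therefore rests on named members. A member was called changed at a Benjamini-Hochberg adjusted p under 0.05 over all 15132 genes in the limma model. In homozygous tumors against wild-type ganglia 17 of 38 members were called (44.7%, 7 higher and 10 lower), beside 49.8% of all genes, 23.1% higher and 26.6% lower. In hemizygous tumors 23 of 38 were called (60.5%, 10 higher and 13 lower), beside 52.6% of all genes, 27% higher and 25.6% lower. Homozygous ganglia differed from wild-type ganglia in 2 of 38 members, both lower, where 5.01% of all genes were called, 3.99% higher and 1.02% lower. Homozygous tumors differed from homozygous ganglia in 11 members (3 higher, 8 lower), with 21.6% of all genes called, 9.35% higher and 12.3% lower. Hemizygous tumors differed from homozygous tumors in 3 members (1 higher, 2 lower), with 6.21% of all genes called, 3.46% higher and 2.74% lower. Under quantile normalization the members called were 2, both lower. No member was called in tumors with Mdk knockout, where 0.00661% of all genes were called. In neurospheres against wild-type ganglia 14 members were called (2 higher, 12 lower), beside 39.2% of all genes, 16.8% higher and 22.4% lower. In tumorspheres against hemizygous tumors 8 members were called (2 higher, 6 lower), beside 12.6% of all genes, 5.61% higher and 6.99% lower. In tumorspheres against neurospheres 14 members were called (9 higher, 5 lower), beside 38.4% of all genes, 23.5% higher and 14.9% lower.

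The median log2 difference of the tested members in homozygous tumors against wild-type ganglia was -0.28, beside -0.12 over all genes tested. In hemizygous tumors these medians were -0.10 and -0.05, in neurospheres against ganglia -0.30 and -0.12, in tumorspheres against tumors -0.16 and 0.01, and in tumorspheres against neurospheres 0.01 and 0.11. Both tumor comparisons use the same 4 wild-type ganglia. The members that rose in both were Abcc1, Abcc3, Abcc5, Abcb8, Abce1, Abcf1 and Abcf2, and those that fell in both were Abcb1a, Abcg2, Abcc4, Abca3, Abca8a, Abca8b, Abca9, Abcd2 and Abcd3. No member was called higher in one kind of tumor and lower in the other.

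**Figure D1:**
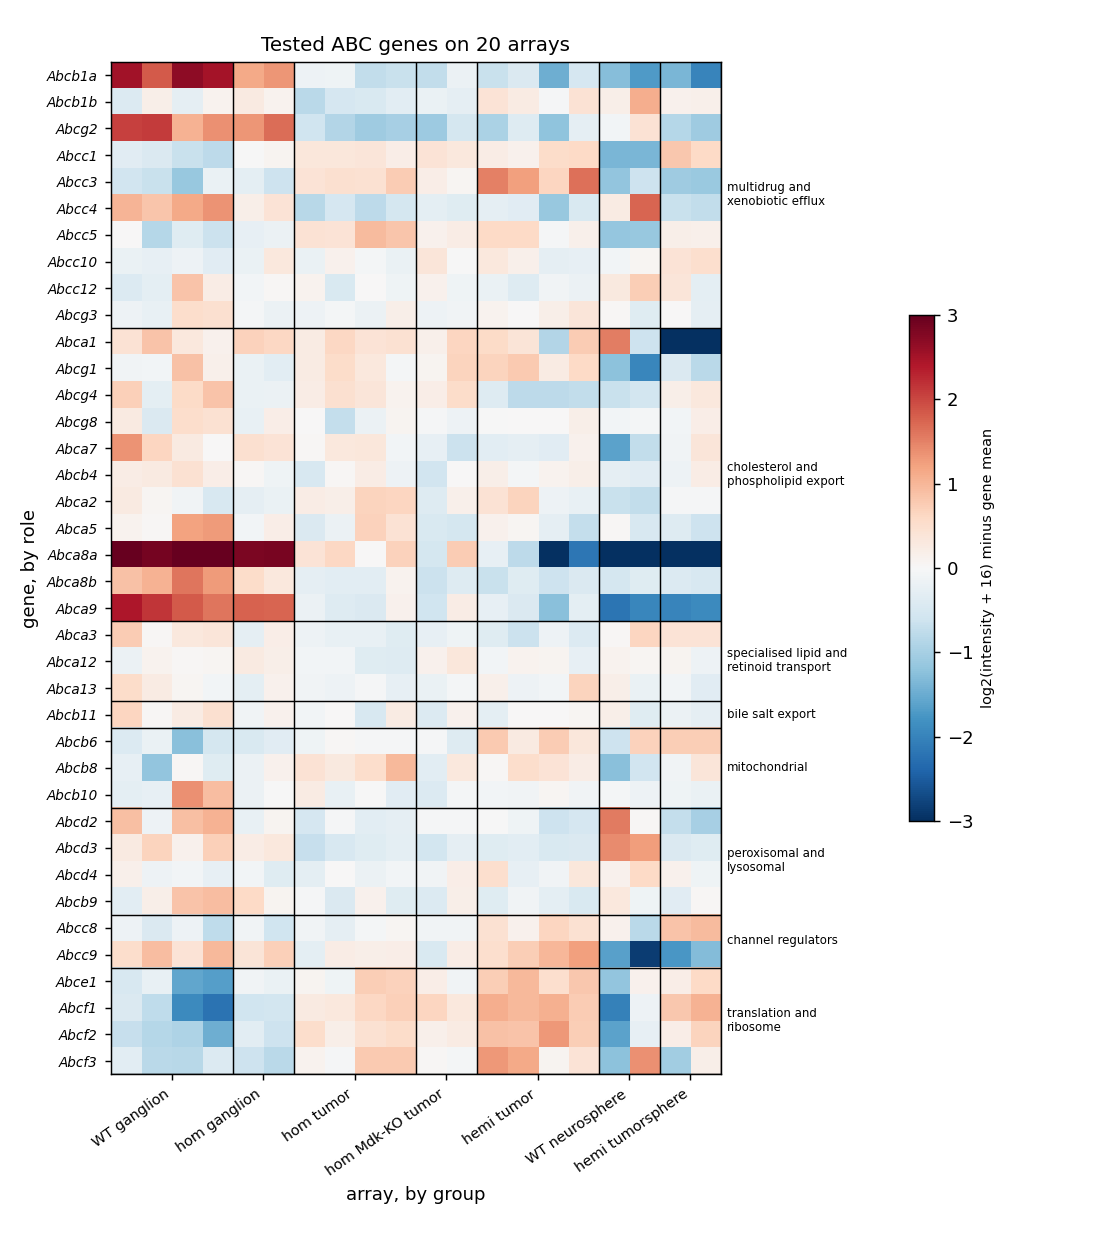
Difference of log2(intensity + 16) from the mean of the same gene over all 20 arrays (colour). Rows are the 38 tested members, by role, and columns are the 20 arrays, by group. Colour is saturated at 3 log2 units in either direction. Abca8a, Abca9, Abcb1a and Abcg2 are lower in all tumors than in all ganglia, and Abca1 is low on the 2 tumorsphere arrays.

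Among the multidrug pumps, RNA for the P-glycoprotein gene Abcb1a, for the breast cancer resistance protein Abcg2 and for Abcc4 was lower in tumors than in wild-type ganglia, and RNA for Abcc1 and Abcc3 was higher. Of 10 tested members of this group, 3 were called higher and 3 lower in each kind of tumor against wild-type ganglia. Abcc5 was counted as higher by its brightest probe set. These counts are near the shares of all genes, 23.1% higher and 26.6% lower in homozygous and 27% and 25.6% in hemizygous tumors.

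Abcb1a encodes a mouse P-glycoprotein, the drug efflux pump of the blood-brain barrier. Its intensity was 376, 231, 426 and 371 in wild-type ganglia and 135 and 157 in homozygous ganglia. In homozygous tumors it was 45.5, 46.3, 24.8 and 27.3, and in hemizygous tumors 27.3, 35.1, 8.67 and 32. Every tumor lay below every ganglion, and the homozygous ganglia lay between wild-type ganglia and tumors without overlap. The difference from wild-type ganglia on the log2(intensity + 16) scale was -2.81 ± 0.25 (SE, adjusted p = 5.96e-08) in homozygous tumors and -3.16 ± 0.25 (SE, adjusted p = 1.01e-08) in hemizygous tumors. This scale understates the change of dim genes. The other Abcb1a probe set gave -2.69 and -2.91.

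Abcb1b, the other mouse P-glycoprotein gene and the next gene on the chromosome, did not follow Abcb1a in the comparisons with wild-type ganglia. Its intensities were low throughout: 9.71, 22.4, 12.1 and 21 in wild-type ganglia, 3.55, 8.22, 9.09 and 11.2 in homozygous tumors and 29.5, 24.3, 17.2 and 30 in hemizygous tumors. The tumor types did not overlap each other, and both overlapped the wild-type ganglia. Homozygous ganglia had 25.3 and 21, above all homozygous tumors. Against these ganglia both genes were called lower in homozygous tumors, Abcb1a by -1.66 and Abcb1b by -0.71. There the Abcb1b call was lost under quantile normalization, median centring and the mean of its probe sets. Between hemizygous and homozygous tumors the log2 difference was 0.78 ± 0.20 (SE, adjusted p = 0.025). This call was lost without hemizygous tumor 1 or 4 or homozygous tumor 1, 2 or 3, and also under quantile normalization. The highest adjusted p over its alternatives was 0.26, with the mean of its probe sets. The values lie near the 40th percentile of an array, which ranged from 8.58 to 15.8 and served as the brightness limit.

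Abcg2, the breast cancer resistance protein, is an efflux pump of many stem cells and barrier tissues. Wild-type ganglia had intensities of 868, 897, 420 and 535, and homozygous ganglia 517 and 666. Homozygous tumors had 126, 100, 84.9 and 91, and hemizygous tumors 94.3, 148, 75.6 and 160. Tumors of both kinds lay below every ganglion, while the homozygous ganglia lay within the wild-type range. Against wild-type ganglia the difference was -2.52 ± 0.26 (SE, adjusted p = 2.86e-07) in homozygous and -2.34 ± 0.26 (SE, adjusted p = 5.15e-07) in hemizygous tumors. Against the homozygous ganglia of the same genotype, homozygous tumors had a difference of -2.38 ± 0.32 (SE, adjusted p = 7.12e-05).

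Abcc4, a pump for cyclic nucleotides and prostaglandins, read 405, 357, 440 and 517 in wild-type ganglia and 219 and 261 in homozygous ganglia. Tumors read 101, 132, 104 and 128 in homozygotes and 157, 149, 78.6 and 136 in hemizygotes. As with Abcb1a, homozygous ganglia lay between wild-type ganglia and tumors without overlap. The log2 difference was -1.75 ± 0.25 (SE, adjusted p = 1.56e-05) in homozygous and -1.63 ± 0.25 (SE, adjusted p = 2.58e-05) in hemizygous tumors, and -0.79 with adjusted p = 0.15 in homozygous ganglia, which did not pass.

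**Figure D2:**
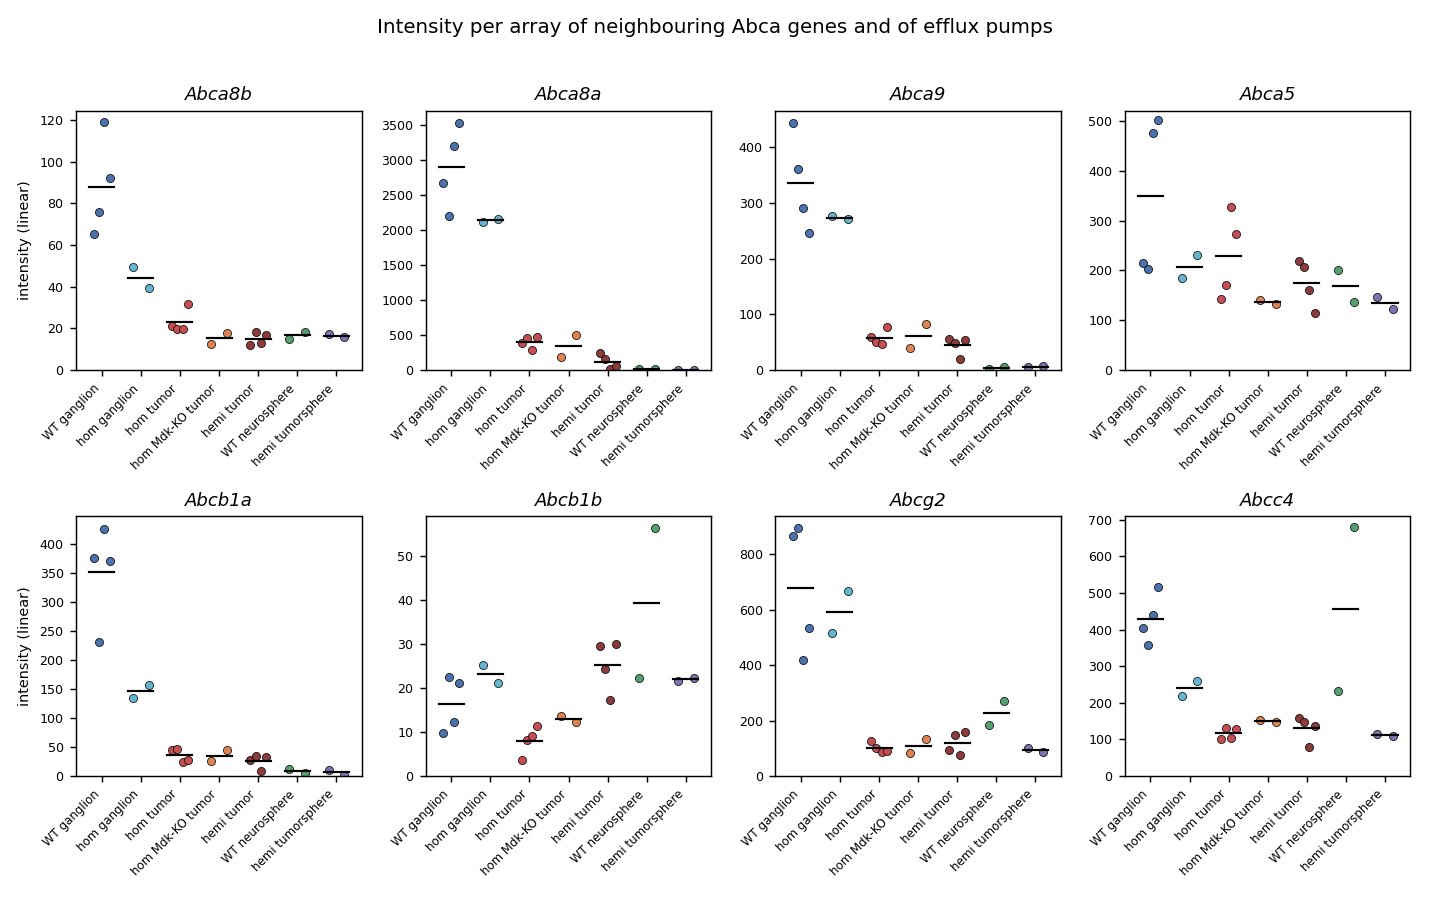
Intensity per array on a linear scale for Abca8b, Abca8a, Abca9, Abcb1a, Abcg2 and Abcc4, by group, with Abca5 and Abcb1b shown beside them; points are arrays and bars are group means. For Abcb1a, Abcg2, Abca8a, Abca8b and Abca9 every tumor array lies below all 6 ganglia.

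Endothelial cells are a known site of Abcb1a and Abcg2. The mean log2 level of 12 endothelial markers was 4.98 to 6.05 in wild-type ganglia, 5.12 to 5.31 in homozygous tumors and 5.86 to 6.22 in hemizygous tumors. Of these markers, 4 fell and 0 rose in homozygous tumors, beside 26.6% and 23.1% of all genes. In hemizygous tumors, where Abcb1a and Abcg2 fell too, 0 fell and 6 rose, beside 25.6% and 27% of all genes. Markers of Schwann and satellite glia (9 genes) had a mean log2 level of 9.01 to 9.47 in wild-type ganglia, 6.81 to 7.16 in homozygous and 5.84 to 6.58 in hemizygous tumors. Those of fibroblasts (8 genes) were at 9.60 to 10.04, 8.17 to 8.51 and 7.06 to 8.59, and those of neurons (12 genes) at 10.68 to 11.48, 9.27 to 9.64 and 8.29 to 8.81. No marker of these 3 lists was at or under the brightness limit on all homozygous or all hemizygous tumor arrays. The part of these cell types in the results was not tested.

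Abcc1 and Abcc3 of the C family went the other way. Abcc1 exports glutathione and glucuronide conjugates and many anticancer drugs. It read 223, 209, 175 and 158 in wild-type ganglia, 365, 367, 375 and 332 in homozygous tumors and 336, 312, 425 and 442 in hemizygous tumors. All 8 tumors exceeded all 4 ganglia, and the homozygous ganglia (284 and 306) lay between them. On the log2 scale the difference was 0.87 ± 0.15 (SE, adjusted p = 9.81e-05) in homozygous and 0.93 ± 0.15 (SE, adjusted p = 4.08e-05) in hemizygous tumors. In homozygous ganglia it was 0.60, with adjusted p = 0.069.

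Abcc3, an exporter of glucuronides and bile salts, was dim in ganglia, with 9.26, 7.6, 1.01 and 16.4 in wild-type and 14.6 and 8.43 in homozygous samples. It reached 33.6, 36.6, 35.7 and 47.8 in homozygous tumors and 90.9, 71.9, 42.7 and 103 in hemizygous tumors, with no overlap between ganglia and tumors. The difference from wild-type ganglia was 1.18 ± 0.22 (SE, adjusted p = 2.44e-04) and 1.91 ± 0.22 (SE, adjusted p = 1.00e-06). Hemizygous and homozygous tumors differed by 0.73 with adjusted p = 0.058, which missed the threshold.

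Abcc5, which exports cyclic nucleotides and conjugates, was measured by 10 probe sets that disagreed. The brightest read 236, 124, 180 and 144 in wild-type ganglia, 321, 318, 468 and 428 in homozygous tumors and 367, 363, 230 and 263 in hemizygous tumors, and overlapped between ganglia and hemizygous tumors. Its log2 difference was 1.11 ± 0.20 (SE, adjusted p = 1.26e-04) and 0.79 ± 0.20 (SE, adjusted p = 0.0023). Another bright probe set went the opposite way, with -0.86 in homozygous and -0.69 in hemizygous tumors, and the mean of the 10 gave -0.07 with adjusted p = 0.68 in hemizygous tumors. The direction of Abcc5 thus depends on the probe set.

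Conjugation with glutathione supplies Abcc1 and its relatives with substrates. Of 19 tested genes of that pathway, 1 rose and 13 fell in homozygous tumors, and 2 rose and 10 fell in hemizygous tumors. Over all genes, 23.1% rose and 26.6% fell in homozygous and 27% and 25.6% in hemizygous tumors. The pathway medians were -0.94 and -0.73, beside -0.12 and -0.05 for all genes. Among the pathway genes that fell, the microsomal glutathione transferase Mgst3 had log2 differences of -2.52 and -2.88, and the glutathione transferase Gsta4 of -2.33 and -1.95.

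**Figure D3:**
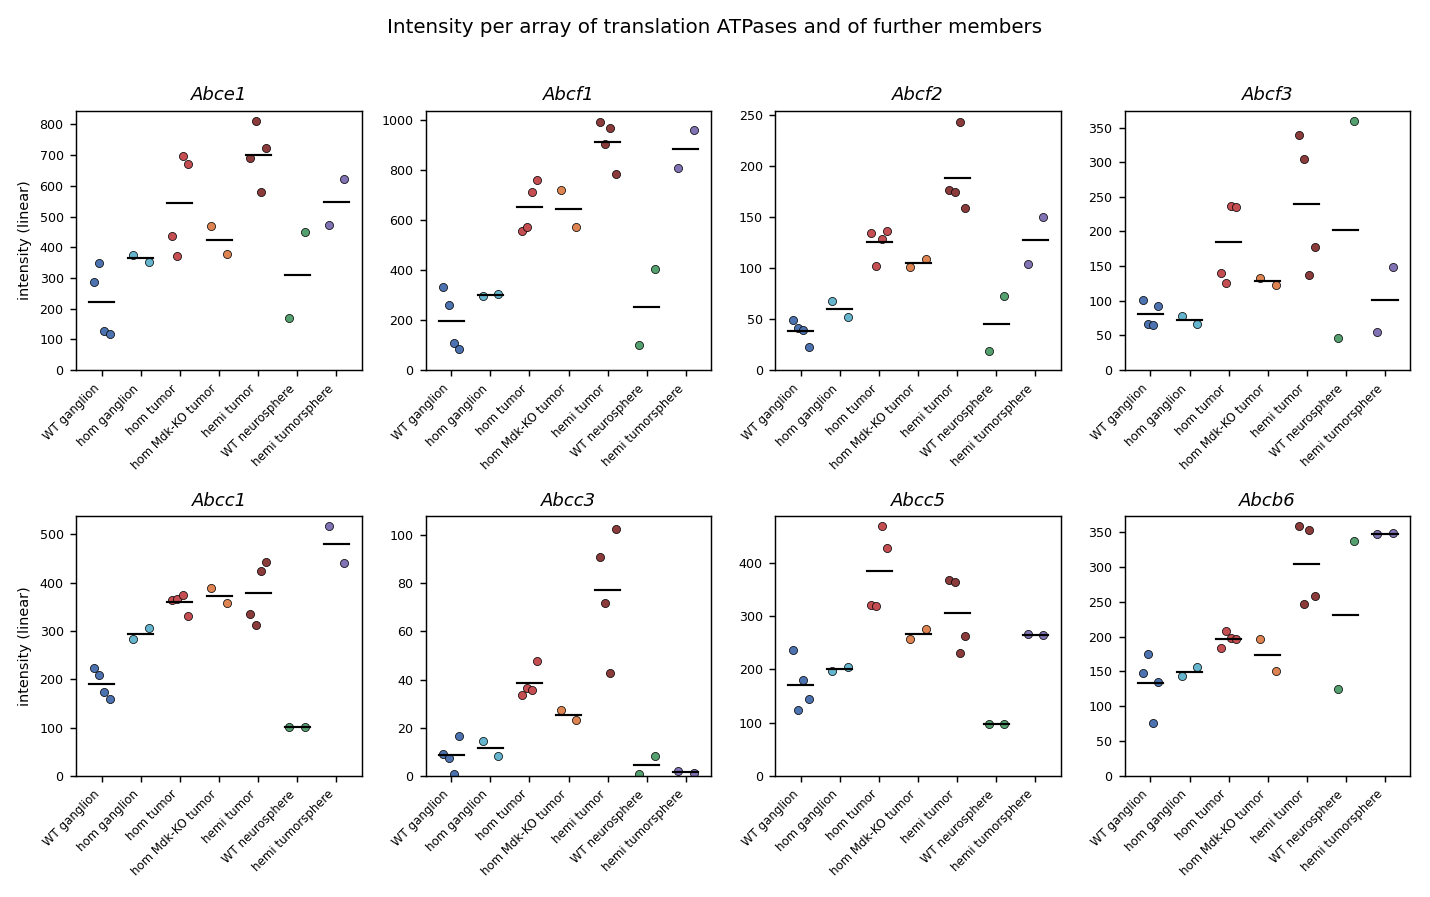
Intensity per array on a linear scale for the translation factors Abce1, Abcf1, Abcf2 and Abcf3 and for Abcc1, Abcc3, Abcc5 and Abcb6, by group; points are arrays and bars are group means. For Abcf1, Abcf2, Abcc1 and Abcc3 all homozygous and hemizygous tumors lie above all ganglia.

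Genes of the E and F families, which act in translation, rose together in tumors. By their brightest probe sets, all 4 rose in hemizygous tumors and 3 of 4 in homozygous tumors, beside 27% and 23.1% of all genes. Abcf1 promotes translation initiation, and Abce1 splits ribosomes into subunits after termination. For Abcf1, wild-type ganglia read 332, 260, 109 and 85.3, homozygous ganglia 295 and 305, homozygous tumors 556, 573, 712 and 762 and hemizygous tumors 992, 904, 966 and 785. Tumors lay above all ganglia, and hemizygous tumors lay above homozygous tumors. The log2 difference from wild-type ganglia was 1.82 ± 0.36 (SE, adjusted p = 3.86e-04) in homozygous and 2.31 ± 0.36 (SE, adjusted p = 3.04e-05) in hemizygous tumors. Both calls were kept under all alternatives, but the sizes depend on the ganglia: against wild-type ganglia 1 and 2 alone the difference was 1.09 in homozygous tumors. Hemizygous against homozygous tumors gave 0.48, with adjusted p = 0.5.

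Abce1 read 289, 349, 128 and 119 in wild-type ganglia and 375 and 352 in homozygous ganglia. In homozygous tumors it read 435, 372, 697 and 672 and in hemizygous tumors 692, 811, 581 and 723. Ganglia 1 and 2 of the wild type were far above ganglia 3 and 4, and all tumors were above all wild-type ganglia. The log2 difference was 1.33 ± 0.32 (SE, adjusted p = 0.0022) in homozygous and 1.73 ± 0.32 (SE, adjusted p = 1.82e-04) in hemizygous tumors. Against wild-type ganglia 1 and 2 alone, the call in homozygous tumors was lost, with adjusted p = 0.069.

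Abcf2 read 49.4, 41.8, 39.8 and 22.4 in wild-type ganglia, 135, 102, 129 and 137 in homozygous tumors and 177, 175, 244 and 159 in hemizygous tumors, again with no overlap between ganglia and tumors. Its log2 difference was 1.40 ± 0.24 (SE, adjusted p = 1.05e-04) in homozygous and 1.92 ± 0.24 (SE, adjusted p = 2.65e-06) in hemizygous tumors. Abcf3 rose in hemizygous tumors, by 1.32 ± 0.42 (SE, adjusted p = 0.013), and had 1.01 with adjusted p = 0.054 in homozygous tumors. Its 2 further probe sets gave -0.19 and -0.22 in hemizygous tumors, so the rise of Abcf3 rests on 1 probe set, and against wild-type ganglia 1 and 2 alone it was not called. The further probe sets of Abce1 and Abcf1 had the same sign as the main one in both tumor comparisons.

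Of 14 tested partner genes of ribosome recycling and stalled ribosomes, 6 rose and 2 fell in homozygous tumors and 7 rose and 1 fell in hemizygous tumors. Beside them, 23.1% of all genes rose and 26.6% fell in homozygous tumors, and 27% and 25.6% in hemizygous tumors. The medians of the partner genes were 0.48 and 0.69, beside -0.12 and -0.05 for all genes. The stress sensor Gcn1 rose by 2.07 and 2.53, and Zfp598, which marks collided ribosomes, by 1.22 and 1.82. Proliferation genes moved with them: all 9 tested cell cycle genes rose in both kinds of tumor, with medians of 4.06 and 4.19. The part of proliferation was not tested.

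Among lipid transporters, Abca8a, Abca8b and Abca9 fell. Of 11 tested members of the cholesterol and phospholipid group, 3 fell in homozygous and 6 in hemizygous tumors, beside 26.6% and 25.6% of all genes, and 0 rose in either, beside 23.1% and 27%. The share in homozygous tumors is near that of all genes. The 3 named genes are neighbours in 1 gene cluster whose products are linked to cholesterol export and lipid handling.

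Abca8a read 2676, 2205, 3200 and 3536 in wild-type ganglia and 2121 and 2162 in homozygous ganglia. It was at 385, 453, 289 and 473 in homozygous tumors and at 241, 161, 17.8 and 52 in hemizygous tumors. The 3 tissue levels did not overlap: ganglia were highest, then homozygous tumors, then hemizygous tumors. Against wild-type ganglia the difference was -2.81 ± 0.45 (SE, adjusted p = 4.49e-05) in homozygous and -4.83 ± 0.45 (SE, adjusted p = 6.51e-08) in hemizygous tumors. Between hemizygous and homozygous tumors the difference was -2.02 ± 0.45 (SE, adjusted p = 0.011), a call kept under all alternatives.

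Abca9 read 444, 362, 291 and 246 in wild-type ganglia, 59.4, 49.7, 47.6 and 77.5 in homozygous tumors and 56.3, 47.9, 19.8 and 54.1 in hemizygous tumors. The tumors lay far below the ganglia and overlapped each other. The log2 differences from wild-type ganglia were -2.22 ± 0.24 (SE, adjusted p = 5.02e-07) and -2.56 ± 0.24 (SE, adjusted p = 6.81e-08). Abca8b, dimmer, read 65.1, 75.8, 119 and 92.3 in wild-type ganglia, 21.1, 19.9, 19.8 and 31.6 in homozygous tumors and 12.1, 18.4, 13.1 and 16.9 in hemizygous tumors. Its differences were -1.40 ± 0.17 (SE, adjusted p = 1.84e-06) and -1.72 ± 0.17 (SE, adjusted p = 1.13e-07), without overlap between ganglia and tumors. Abca5, at the end of the same cluster, read 215, 203, 475 and 501 in wild-type ganglia and 218, 206, 160 and 114 in hemizygous tumors, which overlapped. Its difference of -0.86 ± 0.30 (SE, adjusted p = 0.023) passed, but its further probe set gave 0.07.

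The marker levels of fibroblasts and glia given above fell beside this cluster, and their part in its fall was not tested. Adipocyte markers (4 genes) were at a mean log2 level of 6.49 to 9.95 in wild-type ganglia, 6.24 to 6.88 in homozygous and 5.50 to 7.85 in hemizygous tumors. Levels of Abca8a in hemizygous tumors also varied with the samples: tumors 3 and 4 had the lowest values. Tumor 3 had the lowest fibroblast level, 7.06, and also the lowest glia and adipocyte levels, 5.84 and 5.50. Tumor 4 had a fibroblast level of 8.32, between those of tumors 2 and 1, 8.25 and 8.59.

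Among the other lipid transporters, Abcg4, a cholesterol transporter of the nervous system, separated the tumor types. It read 139, 61.4, 124 and 154 in wild-type ganglia, 94.2, 116, 105 and 85.7 in homozygous and 55.4, 38.2, 38.8 and 39.9 in hemizygous tumors. Homozygous tumors overlapped the ganglia, and hemizygous tumors were below both. Hemizygous tumors differed from homozygous tumors by -0.98 ± 0.20 (SE, adjusted p = 0.0077) and from ganglia by -1.15 ± 0.20 (SE, adjusted p = 1.10e-04). The second Abcg4 probe set gave 0.10 and 0.03, so the difference rests on 1 probe set.

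Abca1 and Abcg1, which load cholesterol onto lipoproteins, did not pass in tumors. Abca1 read 650, 877, 599 and 522 in wild-type ganglia, 571, 740, 640 and 659 in homozygous and 719, 627, 253 and 816 in hemizygous tumors, with log2 differences of -0.00 (95% interval -0.77 to 0.77) and -0.22 (-0.996 to 0.548). For Abcg1 the differences were 0.05 (-0.44 to 0.54) and 0.36 (-0.12 to 0.85). Abca2, a lipid transporter of myelinating cells, had 0.50 and 0.25, with adjusted p = 0.063 and 0.35. Abca7, a lipid transporter of phagocytes, fell in hemizygous tumors, with overlapping values and a difference of -0.76 ± 0.25 (SE, adjusted p = 0.017). Of 16 tested partners in cholesterol export, 0 rose and 3 fell in homozygous tumors, beside 23.1% and 26.6% of all genes. In hemizygous tumors 4 rose and 3 fell, beside 27% and 25.6% of all genes. The retinoid receptor Rxrg fell in both kinds of tumor, with differences of -1.41 and -1.54.

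Abca3, the surfactant lipid transporter of lung lamellar bodies, also fell on its brightest probe set. That set read 425, 251, 307 and 317 in wild-type ganglia, 216, 207, 206 and 185 in homozygous and 185, 150, 216 and 178 in hemizygous tumors, and the wild-type ganglia did not overlap tumors. The homozygous ganglia read 201 and 284, and the lower of these lay within the tumor range. On the log2 scale the difference was -0.61 ± 0.18 (SE, adjusted p = 0.0081) in homozygous and -0.77 ± 0.18 (SE, adjusted p = 0.0014) in hemizygous tumors. Its further probe sets were dim and near 0, and the call was lost with the mean of all 3.

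The peroxisomal transporters Abcd2 and Abcd3 were lower in tumors by their brightest probe sets, and some mitochondrial members were higher. Of 4 tested peroxisomal and lysosomal members, 2 fell in homozygous and 3 in hemizygous tumors, beside 26.6% and 25.6% of all genes. None of the 4 rose in either, beside 23.1% and 27% of all genes. Abcd3, which brings branched fatty acids and bile acid precursors into peroxisomes, read 1110, 1476, 1014 and 1528 in wild-type ganglia and 1067 and 1140 in homozygous ganglia. Homozygous tumors read 565, 651, 708 and 750 and hemizygous tumors 715, 737, 667 and 670, all below the ganglia. The log2 differences from wild-type ganglia were -0.91 ± 0.15 (SE, adjusted p = 9.09e-05) and -0.84 ± 0.15 (SE, adjusted p = 1.60e-04). A further, dim Abcd3 probe set gave 0.26 and 0.17. Abcd2, a carrier of very long fatty acids, read 46.8, 14.1, 46.7 and 53 in wild-type ganglia, where ganglion 2 lay at tumor level. Homozygous tumors read 7.4, 16.4, 10.7 and 11.8 and hemizygous tumors 17.2, 14.8, 5.79 and 7.72. The log2 difference of Abcd2 was -0.96 ± 0.29 (SE, adjusted p = 0.0093) and -0.99 ± 0.29 (SE, adjusted p = 0.0073), and both calls were lost against wild-type ganglia 1 and 2 alone. They were also lost with the mean of its 4 probe sets, which gave -0.33 and -0.20. Abcb9, a lysosomal peptide transporter, read 3.9, 11.9, 28.6 and 30.6 in wild-type ganglia and 3.3, 7.08, 4.32 and 2.04 in hemizygous tumors, which overlapped, with a difference of -0.71 ± 0.25 (SE, adjusted p = 0.023). Abcd4, a lysosomal cobalamin transporter, had -0.05 and 0.20 and did not pass.

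Partner genes of peroxisomes moved both ways, 1 of 18 higher and 5 lower in homozygous tumors and 4 higher and 5 lower in hemizygous tumors. The lower counts are near the shares of all genes, 26.6% and 25.6%, while 23.1% and 27% of all genes rose. Phyh, which degrades phytanic acid in peroxisomes, fell, with differences of -1.53 and -1.77, and the import receptor Pex5 rose by 1.07 and 1.19.

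Of the mitochondrial members, Abcb8 rose in both kinds of tumor and Abcb6, a porphyrin transporter, in hemizygous tumors. Abcb8 read 40.3, 13.2, 51.7 and 35.3 in wild-type ganglia, 73.8, 64.9, 80.5 and 115 in homozygous and 52, 80.3, 73.1 and 61.8 in hemizygous tumors. Wild-type ganglia lay below all of these tumors, while the homozygous ganglia (43.2 and 56.3) overlapped the hemizygous ones. It was higher by 1.002 ± 0.25 (SE, adjusted p = 0.0027) in homozygous and by 0.75 ± 0.25 (SE, adjusted p = 0.017) in hemizygous tumors. Abcb6 read 148, 175, 75.4 and 135 in wild-type ganglia, 183, 208, 198 and 197 in homozygous and 359, 247, 354 and 258 in hemizygous tumors. The 3 groups were in rising order without overlap. Abcb6 rose by 1.13 ± 0.25 (SE, adjusted p = 8.72e-04) in hemizygous tumors and had 0.56 with adjusted p = 0.071 in homozygous tumors. Abcb10, which serves heme synthesis, read 41.7, 43.9, 169 and 118 in wild-type ganglia, so ganglia 3 and 4 stood apart from 1 and 2, and it did not pass in any comparison.

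Among 16 tested genes of iron-sulfur and heme synthesis, 3 rose and 5 fell in homozygous tumors and 5 rose and 4 fell in hemizygous tumors. For all genes the shares were 23.1% higher and 26.6% lower in homozygous tumors and 27% and 25.6% in hemizygous tumors. Ferrochelatase (Fech), the last enzyme of heme synthesis, fell, with differences of -2.74 and -2.09. Erythroid markers fell beside it, 3 of 4 in homozygous and 4 of 4 in hemizygous tumors, and their part was not tested.

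The sulfonylurea receptors, regulatory subunits of ATP-sensitive potassium channels, were called in 1 kind of tumor each against wild-type ganglia. Abcc8, the neuronal and islet form, read 13.9, 8.6, 14.3 and 3.64 in wild-type ganglia, 14.9, 11.9, 16.1 and 18.6 in homozygous and 29.9, 20.6, 36.7 and 29.8 in hemizygous tumors. It rose by 0.80 ± 0.20 (SE, adjusted p = 0.0024) in hemizygous tumors, which lay above all ganglia and all homozygous tumors. Against homozygous tumors the difference of 0.52 did not pass (adjusted p = 0.14). Abcc9, the form of vascular muscle, read 164, 220, 150 and 228 in wild-type ganglia, 85.9, 129, 123 and 125 in homozygous and 161, 191, 230 and 273 in hemizygous tumors. Its difference in homozygous tumors was -0.64 ± 0.25 (SE, adjusted p = 0.039), a call lost without homozygous tumor 1, 3 or 4 or wild-type ganglion 2 or 4 and with a pseudocount of 1 (adjusted p = 0.25, the highest). Markers of pericytes and smooth muscle (8 genes) had a mean log2 level of 6.17 to 7.41 in wild-type ganglia, 6.56 to 6.96 in homozygous and 7.41 to 8.32 in hemizygous tumors, and their part was not tested.

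Ganglia of homozygous mice, which carry the transgene but were not labelled as tumors, were between wild-type ganglia and tumors for some members and at the wild-type level for others. The log2 difference was -1.15 ± 0.31 (SE, adjusted p = 0.037) for Abcb1a and -0.76 ± 0.20 (SE, adjusted p = 0.036) for Abca8b. The Abca8b values were 49.5 and 39.3 in homozygous ganglia, below those of all wild-type ganglia. Both calls were lost without homozygous ganglion 1 or 2 or wild-type ganglion 3 or 4, which left 0 members called. Against wild-type ganglia 3 and 4 alone 11 of 38 members were called, beside 5283 of all 15132 genes. Against wild-type ganglia 1 and 2 alone 0 members were called, beside 515 of all genes. At an unadjusted p under 0.05 there were 6 members, 15.8% beside 21.4% of all genes. Abca8a, Abca9 and Abcg2 differed by -0.41, -0.25 and -0.14 and did not pass, although each fell steeply in tumors. All 9 tested cell cycle genes rose in these ganglia, with a median of 2.95, and 1 of 9 Schwann and satellite glia markers fell. Of all genes, 3.99% rose and 1.02% fell.

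Set against ganglia of the same genotype, homozygous tumors had lower Abca8a, Abca8b, Abca9, Abcb1a, Abcb1b, Abcc4, Abcd3 and Abcg2 and higher Abcc3, Abcc5 and Abcf2. The Abcf2 and Abcb1b calls were lost under quantile normalization, median centring and the mean of all probe sets. Those of Abcc5 and Abcd3 were lost with the mean of all probe sets, and those of Abcc4 and Abcc3 with a pseudocount of 1. The Abcc4 call was also lost with the replicate block. Abcd3, Abcc5 and Abcb1b had further probe sets of opposite sign. The largest falls were -2.40 ± 0.55 (SE, adjusted p = 0.0049) for Abca8a, -2.38 ± 0.32 (SE, adjusted p = 7.12e-05) for Abcg2 and -1.97 ± 0.29 (SE, adjusted p = 1.75e-04) for Abca9. Without homozygous ganglion 1 the count went from 11 to 4, and without homozygous ganglion 2 to 3. The calls of Abcg2, Abca9 and Abcb1a remained under every alternative, and that of Abca8a was lost without homozygous ganglion 2 (adjusted p = 0.065).

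No member was called in homozygous tumors with Mdk knockout against homozygous tumors by limma, and 1 of 38 was under 0.05 without adjustment, beside 1.32% of all genes. That member was Abca12, a skin lipid transporter, with 13.4 and 18.1 against 9.72, 9.67, 5.04 and 4.88 and an adjusted p above 0.99. Intervals were wide with 2 knockout tumors. On the log2 scale the difference was -0.03 (95% interval -0.68 to 0.62) for Abcb1a, 0.07 (-0.59 to 0.73) for Abcg2, 0.05 (-0.33 to 0.44) for Abcc1 and -0.01 (-0.94 to 0.92) for Abcf1. Abcc3 had -0.40 (-0.97 to 0.17), and its knockout values of 27.3 and 23.1 lay below all homozygous tumors.

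**Figure D4:**
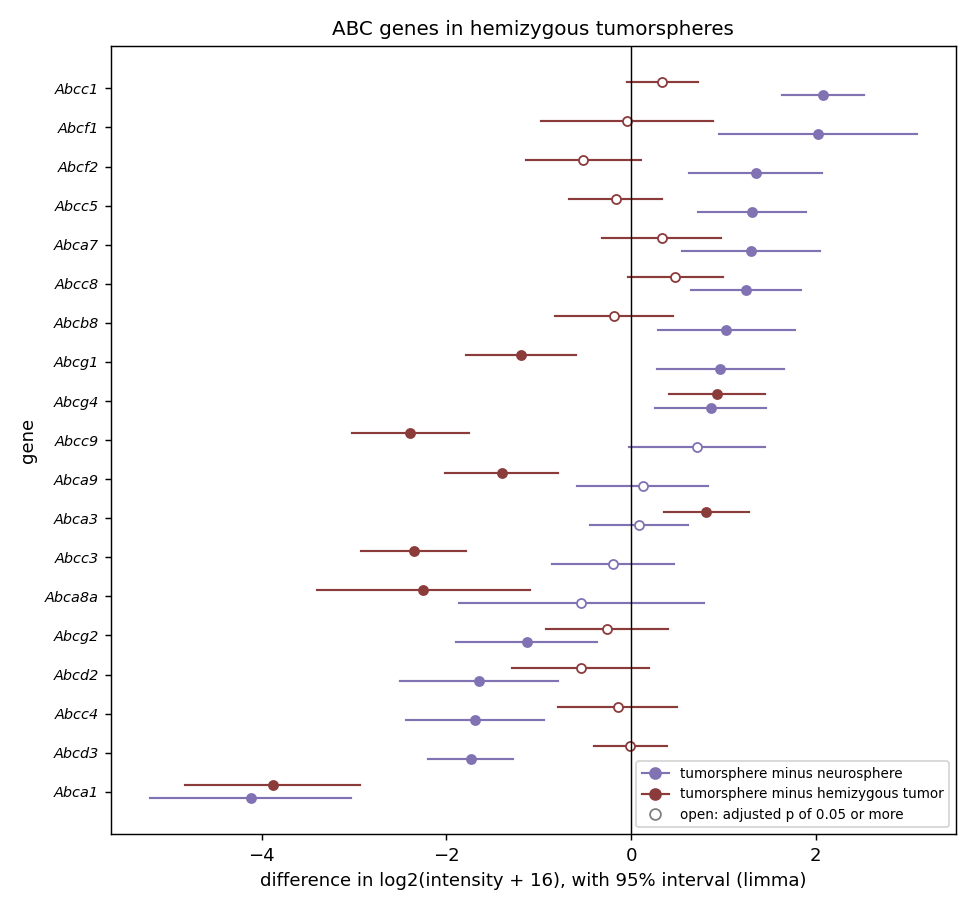
Difference in log2(intensity + 16), with 95% interval from limma, of tumorspheres from neurospheres and from hemizygous tumors for 19 members; open marks have an adjusted p of 0.05 or more. Abca1 lies near -4 in both, at -4.12 and -3.88.

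Tumorspheres of hemizygous mice had far less Abca1 signal than tumors or neurospheres. Abca1 read 20.7 and 24.8 in tumorspheres, 719, 627, 253 and 816 in hemizygous tumors and 1407 and 302 in neurospheres. Tumorspheres lay below every other array of the study. The log2 difference was -3.88 ± 0.45 (SE, adjusted p = 1.48e-05) against hemizygous tumors and -4.12 ± 0.52 (SE, adjusted p = 6.41e-06) against neurospheres, and both calls were kept under all alternatives. The 2 further Abca1 probe sets were dim and gave -0.32 and -0.31 against tumors.

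Other members that fell in tumorspheres against the tumors were Abcc9, Abcc3, Abca8a, Abca9 and Abcg1. Abcc3 read 1.94 and 1.25 in tumorspheres, and differed by -2.35 ± 0.27 (SE, adjusted p = 1.40e-05). Abcc9 read 21.1 and 34.1 and differed by -2.39 ± 0.30 (SE, adjusted p = 3.68e-05), and Abcg1 read 117 and 86.4 and differed by -1.19 ± 0.28 (SE, adjusted p = 0.0095). Abcg4 and Abca3 rose. Abcg4 read 91 and 101, a log2 difference of 0.93 ± 0.25 (SE, adjusted p = 0.018) from the tumors. Abca3 read 330 and 330, and its difference was 0.81 ± 0.22 (SE, adjusted p = 0.019). The second Abcg4 probe set gave 0.15 and the further, dimmer Abca3 sets -0.04 and 0.06, so each rise rests on 1 probe set. Without tumorsphere 1 or tumorsphere 2 the count of called members went from 8 to 4. Abca1, Abcc3 and Abcc9 were called in both refits, while Abca8a, Abca3 and Abcg4 were lost in both, Abca9 without tumorsphere 1 and Abcg1 without tumorsphere 2. The Abca3 call was also lost without hemizygous tumor 2.

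Abcc1, Abcg2 and the 4 translation genes did not pass in tumorspheres against tumors. Log2 differences were 0.34 (95% interval -0.05 to 0.72) for Abcc1, -0.26 (-0.92 to 0.40) for Abcg2, -0.04 (-0.97 to 0.89) for Abcf1 and -0.35 (-1.18 to 0.48) for Abce1. Of 16 tested cholesterol export partners 0 rose and 6 fell, beside 5.61% and 6.99% of all genes. Apoe, the lipid carrier apolipoprotein E, was at -4.27 and the phospholipid transfer protein Pltp at -3.58.

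Signals of macrophages, fibroblasts, endothelial cells and pericytes were low in tumorspheres, while those of Schwann and satellite glia were near the tumor level. The mean log2 level of the 12 macrophage markers was 4.55 to 4.64 in tumorspheres and 7.06 to 8.27 in hemizygous tumors, and all 12 fell. Fibroblast markers were at 5.09 to 5.31 against 7.06 to 8.59, with 5 of 8 lower and 1 higher, and 11 of 12 endothelial and 7 of 8 pericyte markers fell. Schwann and satellite glia markers were at 6.04 to 6.40 against 5.84 to 6.58, with 1 of 9 higher and 0 lower. Of all genes, 5.61% were higher and 6.99% lower. At or under the brightness limit on both tumorsphere arrays were, for macrophages, Aif1, C1qa, C1qb, C1qc and Cd14, and for fibroblasts, Col1a1, Col3a1, Lum and Pdgfra. In neurospheres, where Abca1 read 1407 and 302, the macrophage markers were as low, at 4.56 to 4.75. The part of these cell types in the fall of Abca1 and of the other members was not tested.

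Neurospheres and tumorspheres, both cultures, differed most in Abca1, Abcc1, Abcf1 and Abcd3. Abcc1 read 100 and 101 in neurospheres and 517 and 442 in tumorspheres, a log2 difference of 2.08 ± 0.21 (SE, adjusted p = 4.86e-07). Abcd3 read 2494 and 2206 in neurospheres and 676 and 711 in tumorspheres, a difference of -1.74 ± 0.22 (SE, adjusted p = 6.41e-06). The Abcc1 and Abcd3 calls were kept under all alternatives. Abcc4 read 231 and 679 in neurospheres and 116 and 109 in tumorspheres, a difference of -1.69 ± 0.36 (SE, adjusted p = 0.001), and Abcg2 184 and 270 and 102 and 84.9, a difference of -1.13 ± 0.36 (SE, adjusted p = 0.019). The Abcg2 call was lost without tumorsphere 1, tumorsphere 2 or neurosphere 2. Abcd2 was also lower, at -1.65, and its call was lost without neurosphere 1.

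Several higher calls in tumorspheres rest on uneven neurospheres. Abcf1 read 99.2 and 406 in neurospheres and 809 and 961 in tumorspheres, and Abcf2 18.7 and 72.7 and 104 and 151. The differences were 2.03 ± 0.51 (SE, adjusted p = 0.0041) and 1.35 ± 0.34 (SE, adjusted p = 0.0043), and both calls were lost without neurosphere 1, that of Abcf2 also without tumorsphere 2. Abcc8, Abca7, Abcb8, Abcc5, Abcg1 and Abcg4 were also higher in tumorspheres, by 0.86 to 1.31. Of these, Abca7 was lost without tumorsphere 2 or neurosphere 1, and Abcg1 without tumorsphere 1 or neurosphere 2. Abcg4 was lost without any 1 of tumorsphere 1, tumorsphere 2 and neurosphere 1. Without tumorsphere 2, the higher calls lost were not limited to those listed here. Of the 12 neuron markers 10 were higher in tumorspheres, and 5 of 9 cell cycle genes were higher, beside 23.5% of all genes. The part of these in the results was not tested.

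Against wild-type ganglia, neurospheres had much lower Abca8a, Abca9, Abcb1a and Abcc9. Abca8a read 21.8 and 9.3, Abca9 2.81 and 5.9, Abcb1a 12.4 and 4.99 and Abcc9 23.7 and 1.28 in neurospheres. These levels were below those of every wild-type ganglion, with log2 differences of -6.54, -4.08, -3.88 and -2.96 (largest adjusted p = 3.92e-07). Abcg1, Abca7, Abca8b, Abcg2, Abcg4, Abcc1, Abcc5 and Abcb4, a phospholipid floppase of bile canaliculi, were also lower, with differences from -0.59 to -1.79. The Abcc5 call was lost without neurosphere 1 or 2 or wild-type ganglion 1 or 3. Abcd3 and Abcb1b rose, with log2 differences of 0.89 ± 0.19 (SE, adjusted p = 0.0011) and 0.73 ± 0.24 (SE, adjusted p = 0.023). The Abcb1b call was lost without neurosphere 2 or wild-type ganglion 1, with adjusted p = 0.47 in the first case. All 12 neuron markers and 6 of 8 fibroblast markers fell in neurospheres, beside 22.4% of all genes, and the part of these markers was not tested.

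Of the members, 19 had 1 probe set and 26 had several. Among the 17 members called in homozygous tumors against wild-type ganglia, 11 had further probe sets, and in 8 all of them had the sign of the brightest. The exceptions were Abcd3, Abca3 and Abcc5. In hemizygous tumors all further probe sets agreed in sign for 8 of 15 called members, with exceptions in Abcd3, Abca3, Abcc5, Abca5, Abcf3, Abcg4 and Abcd2. Many of the further probe sets are dim. The probe sets used for Abcc2, Abcc9, Abce1, Abcf1 and Abcg4 can match several transcripts by their naming.

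The 7 members that were not tested, because fewer than 2 arrays exceeded the brightness limit, were Abca4, the retinal transporter of photoreceptors, Abca6, Abca14, Abca16, Abcc2, the canalicular conjugate pump of the liver, Abcc6 and Abcg5, a sterol exporter of liver and gut. Their highest intensity on any array was 34.3, for Abcc2. Tested members that passed in no comparison were Abca12, Abca13, Abca2, Abcb10, Abcb11, Abcc10, Abcc12, Abcd4, Abcg3 and Abcg8.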

How the data were processed

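The authors' deposited values are linear intensities, 1 per probe set and array, from 40 ng of total RNA amplified in 2 cycles per the labels' protocols. They were summarized with software not given in the sources used here. Every array had a trimmed mean of 100, so no further normalization was applied. Of 45101 probe sets, 34945 carried 1 gene symbol. Values were taken as log2(intensity + 16), and a gene was tested where it exceeded the 40th percentile of at least 2 arrays. limma 3.58.1 (R 4.3.3) was fitted to 7 group means over all 20 arrays, with Benjamini-Hochberg adjustment over 15132 genes. Replicates were compared as unpaired groups. Named per comparison were up to 5 called members with the highest and up to 5 with the lowest difference, a set of well-known members whether called or not, and up to 3 called genes of each partner list. Other called members were named after their values were seen. Members and lists were chosen with earlier results of these data known. The scripts' tests were checked on simulated data. Alternatives covered normalization, pseudocount, brightness filter, probe set choice, the set of arrays and leaving out each array. The number of arrays limits the precision.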

Additional observations from a re-analysis of the deposited data

Results flagged for a closer look

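In 8 of 114 sets of 4 arrays of 1 group, 1 array of a named member stood farther from the rest than Dixon's test allows at the 95% level, and chance alone gives about 1 in 20. Among hemizygous tumors, Abca7 was 41.2 in tumor 4 against 25.1 to 27.4 in the others, Abcb10 was 57.4 in tumor 3 against 49.5 to 50.8, and Abcb11 was 2.75 in tumor 1 against 7.01 to 7.95. Also among them, Abcg4 was 55.4 in tumor 1 against 38.2 to 39.9, and Abcg8 was 15 in tumor 4 against 11.2 to 11.8. Among homozygous tumors, Abca8b was 31.6 in tumor 4 against 19.8 to 21.1, and Abcc9 was 85.9 in tumor 1 against 123 to 129. Among wild-type ganglia, Abcd2 was 14.1 in ganglion 2 against 46.7 to 53.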

How the results depend on the processing

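Of 81 calls on named members, 41 were kept under all alternatives run for them, and 1 value reversed, that of Abcc5 in hemizygous tumors against wild-type ganglia, at -0.068 with the mean of all its probe sets. For homozygous against wild-type ganglia, the 2 calls became 0 with a pseudocount of 1 and 0 on the compared arrays alone. They became 1 with a term for replicates 1 and 2 against 3 and 4. Of all genes, 758 were called in the main fit, and 578, 144 and 550 in these refits. Against wild-type ganglia 1 and 2 alone 0 members and 515 of all genes were called, and against 3 and 4 alone 11 and 5283. Whether replicate numbers pair the samples is not stated in the labels, and correlations of same-numbered arrays could not decide it. Same-numbered homozygous tumors and wild-type ganglia correlated at 0.07 to 0.25, and hemizygous tumors and wild-type ganglia at -0.27 to -0.03. Where both groups have 2 arrays, both correlations are equal by construction (0.026 for tumorspheres and neurospheres). With the replicate block, the count for homozygous against wild-type ganglia was 0, beside 434 of all genes. For homozygous tumors against homozygous ganglia the 11 calls became 18 on the compared arrays alone, and those of all genes went from 3271 to 6291. Without the 6 arrays with Acta1 over 100, 22 members were called for homozygous and 23 for hemizygous tumors against wild-type ganglia. Of all 15132 genes, 7552 and 8042 were called. Hemizygous against homozygous tumors gave 4 members, beside 766 of all genes. This refit left 1 homozygous ganglion and 1 Mdk-knockout tumor, so no counts are given for their comparisons. In the same refits 18 members were called for neurospheres against ganglia, 9 for tumorspheres against tumors and 14 for tumorspheres against neurospheres. Beside them, 5732, 2553 and 6455 of all genes were called. The 3 calls between hemizygous and homozygous tumors became 1 with the mean of probe sets and 7 on the compared arrays alone. Of all genes, 902 and 1966 were called there. On the compared arrays alone, neurospheres against ganglia gave 8 instead of 14, and tumorspheres against neurospheres 6 instead of 14. The calls of all genes went from 5934 to 2813 and from 5808 to 4274.

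Leaving out 1 array at a time gave 16 to 23 calls for homozygous tumors against wild-type ganglia (23 without wild-type ganglion 2), 21 to 24 for hemizygous tumors, 0 to 5 for homozygous ganglia, 3 to 9 for homozygous tumors against homozygous ganglia and 2 to 4 for hemizygous against homozygous tumors. It gave 0 for Mdk knockout, 12 to 16 for neurospheres against ganglia, 4 to 9 for tumorspheres against tumors and 9 to 14 for tumorspheres against neurospheres. Median centring moved the median of all genes from 0.01 to 0.12 in tumorspheres against tumors and from -0.12 to -0.01 in neurospheres against ganglia. Values near the brightness limit are only weakly measured. The cause of these changes was not tested.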
